A study of Arabidopsis thaliana with 6 samples.

Results

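The 41 Arabidopsis thaliana genes described here encode histones: 3 of linker histone H1, 12 of H2A and its variants, 10 of H2B, 5 of H3.1, 3 of H3.3 and 8 of H4. They were chosen by gene ID among the 34262 features of the deposited table, and all 41 were in it. No measured value entered that rule, but earlier results of these data were known when the genes were chosen. RNA was measured in whole seedlings of lhp1-3, of importin123 and of the wild type, all in the Col-0 ecotype, with 2 libraries per genotype and 6 in all. The lhp1-3 line carries a mutant allele of LHP1, whose protein binds Polycomb-marked histone H3, and importin123 is a triple mutant in importin alpha genes, whose proteins carry cargo into the nucleus. Every genotype grew on ½ MS medium with 0.8% sucrose under long days (16 h light, 8 h dark) and was harvested at ZT12. By its design text, the study compared the genes that changed in the 2 kinds of mutant. Each mutant genotype was a single line, no rescued line was measured, and the labels do not say whether the 2 libraries of a genotype came from separate plantings, so that p-values measure only the spread between these libraries, which may be technical.

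Histones package nuclear DNA. An octamer of H2A, H2B, H3 and H4 forms the nucleosome core, and H1 binds the linker between cores. Replication-dependent histones, here canonical H2A, H2B, H3.1 and H4, are made mostly in S phase to cover newly copied DNA, while replacement histones, here H2A.Z and H3.3, are made throughout the cell cycle and exchanged into existing chromatin. Plant histone mRNAs carry a poly(A) tail, so that poly(A) selection, which was used for these libraries, takes up both kinds. By these types, 27 of the genes were replication-dependent, 6 were replacement and 8 were others (H1, H2A.X and H2A.W).

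Total counts per library were 90725014 and 81566899 in lhp1-3, 70137936 and 71527792 in importin123, and 78775091 and 95101867 in Col-0. The mutant libraries carried reads on nearly silent genes: the 2306 long nuclear protein-coding genes with the least signal had a median of 1.32 to 1.79 RPKM, which is reads per kb of gene scaled to the total, in the 4 mutant libraries and 0.206 and 0.248 RPKM in Col-0. This floor made up 10.5% to 15.3% of nuclear counts in the mutant libraries and 1.44% and 1.74% in Col-0, and chloroplast features took 13.7% to 18.7% of counts in the mutants and 2.95% and 3.27% in Col-0. The fold changes of the histone genes named are therefore given from the counts as deposited and after each library's floor was subtracted. The part of these reads in a deposited difference was not tested apart from that subtraction. RPKM are scaled to totals that hold the floor and chloroplast reads, which lowers the RPKM of other genes in the mutants. Statements below that mutant RPKM lay below Col-0 include this offset. Summed over all 41 genes, the log2 ratio to Col-0 was -0.40 by RPKM and -0.20 after subtraction in lhp1-3. In importin123 it was -0.29 and -0.16. LHP1 was called lower in lhp1-3 (log2 fold change -1.03 ± 0.13 as deposited, adjusted p = 3.58e-06, and -1.02 ± 0.15 after subtraction, adjusted p = 0.00433, edgeR). In importin123, IMPA1 was called lower (-3.36 ± 0.14 as deposited and -3.51 ± 0.10 after subtraction), as were IMPA2 (-4.41 ± 0.17 and -5.42 ± 0.14) and IMPA3 (-1.97 ± 0.12 and -1.87 ± 0.12). As deposited the unmutated partner was also called lower, LHP1 in importin123 at -0.36 ± 0.12 (adjusted p = 0.015) and IMPA1, IMPA2 and IMPA3 in lhp1-3 at -0.84 ± 0.13, -0.89 ± 0.14 and -0.69 ± 0.12. After subtraction these were not called, at 0.04 ± 0.15 for LHP1 and -0.23 ± 0.09, -0.25 ± 0.11 and -0.19 ± 0.11 for IMPA1, IMPA2 and IMPA3.

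Which histone genes were called depended on whether that floor was subtracted. In the deposited counts, 34 of the 41 genes were called lower in lhp1-3 than in Col-0 and 1 was called higher (edgeR quasi-likelihood test over all 33906 features tested, Benjamini-Hochberg adjusted p under 0.05). Over all features, 33.5% were called lower and 41.8% higher in that comparison. In importin123, 29 were called lower and 2 higher, against 33.2% lower and 42.3% higher over all features. The median log2 fold change of the 41 genes was -0.75 in lhp1-3 and -0.59 in importin123, and that of all features was 0.17 and 0.20. The scale factors of that fit (TMM) ran from 1.06 to 1.18 for mutant libraries, but were 0.788 and 0.807 for Col-0. Such factors lower the scaled counts of every gene in the mutants. Nearly silent genes, which carry the floor, are counted among all features. All features are therefore not a like background for the 41 genes, and the lower calls cannot be read as specific to histones. In bulk seedlings, fewer cells of a type and less RNA per cell cannot be told apart.

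After floor subtraction, in which 19697 genes were tested, 9 histone genes were called higher and 7 lower in importin123 than in Col-0, against 19.3% higher and 21.7% lower over all genes tested. In lhp1-3 there were 2 higher and 2 lower calls, against 9.08% and 7.17%. These counts are near or under the shares over all genes, so the descriptions below turn on single genes and classes. All 41 genes passed the filters of both fits. The medians of the 41 genes were then -0.09 in lhp1-3 and 0.07 in importin123, with -0.03 and 0.00 over all genes tested. Every lower call after subtraction was also a lower call in the deposited counts, and of the higher calls after subtraction, 1 in lhp1-3 and 2 in importin123 were also deposited higher calls. Without each library in turn, 6 of the 9 higher and 4 of the 7 lower calls of importin123 were kept throughout, and none of the 4 calls of lhp1-3 was. Among 7474 nuclear genes with a mean of at least 10 RPKM, rescaled among themselves without subtraction, 36 histone genes were tested. Of these, 11 were called higher in importin123 (27.3% over all genes) and 7 lower (29.2%), and 2 were called higher in lhp1-3 (10.2%) and 1 lower (8.34%). The median log2 fold change of the 36 genes on that scale was 0.15 for importin123 and -0.06 for lhp1-3. Over all 7474 genes it was -0.0 for each mutant.

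**Figure D1:**
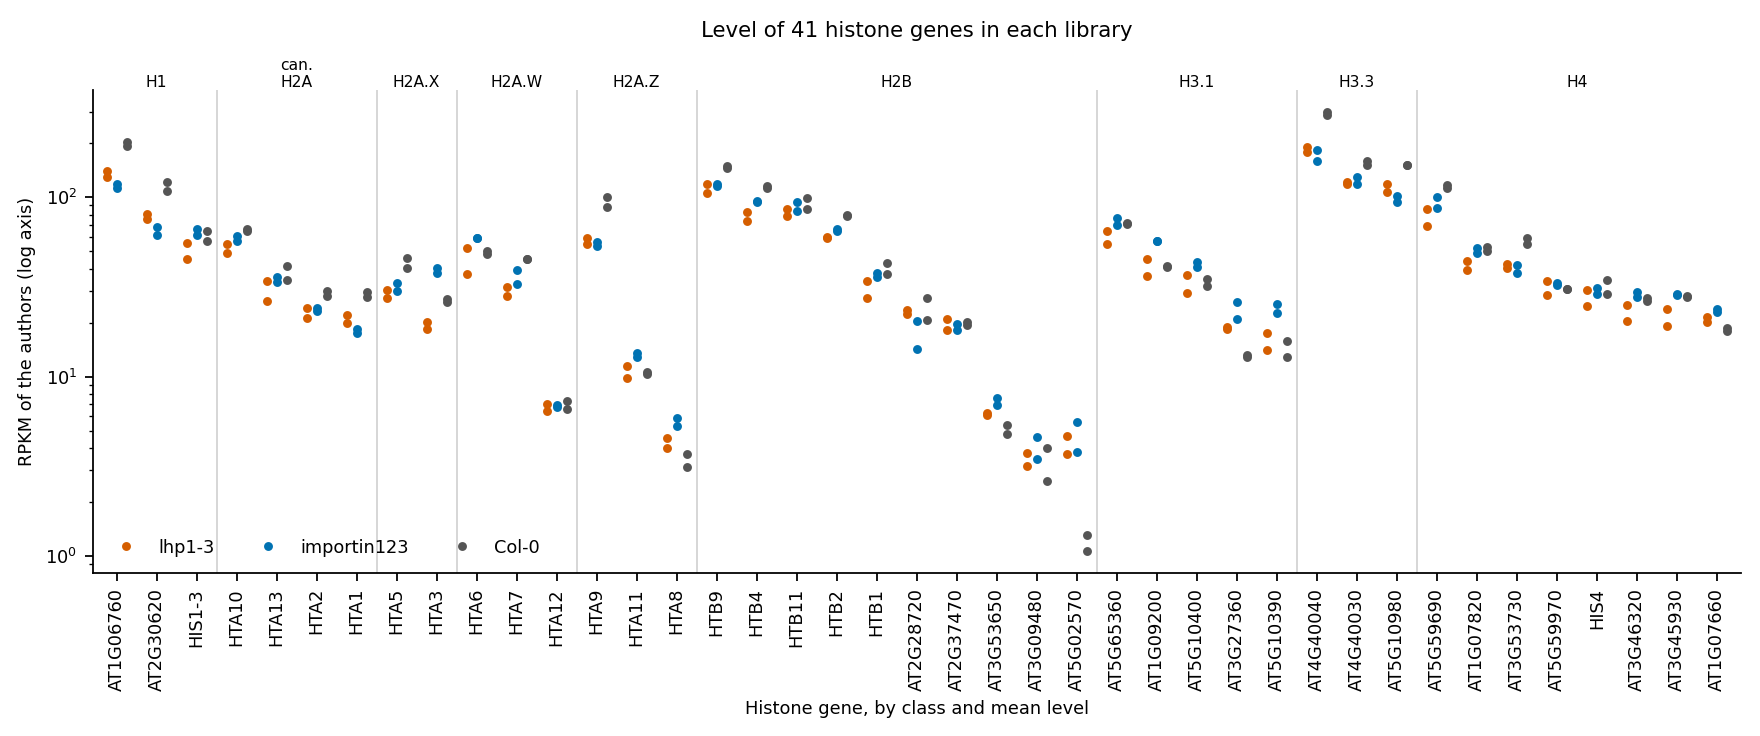
Authors' RPKM (log axis) of each of the 41 histone genes in each library, grouped by class and ordered by mean level, with 1 point per library of lhp1-3, importin123 and Col-0. Levels ran from 1.07 RPKM for AT5G02570 in a Col-0 library to 298 RPKM for AT4G40040 in another.

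**Figure D2:**
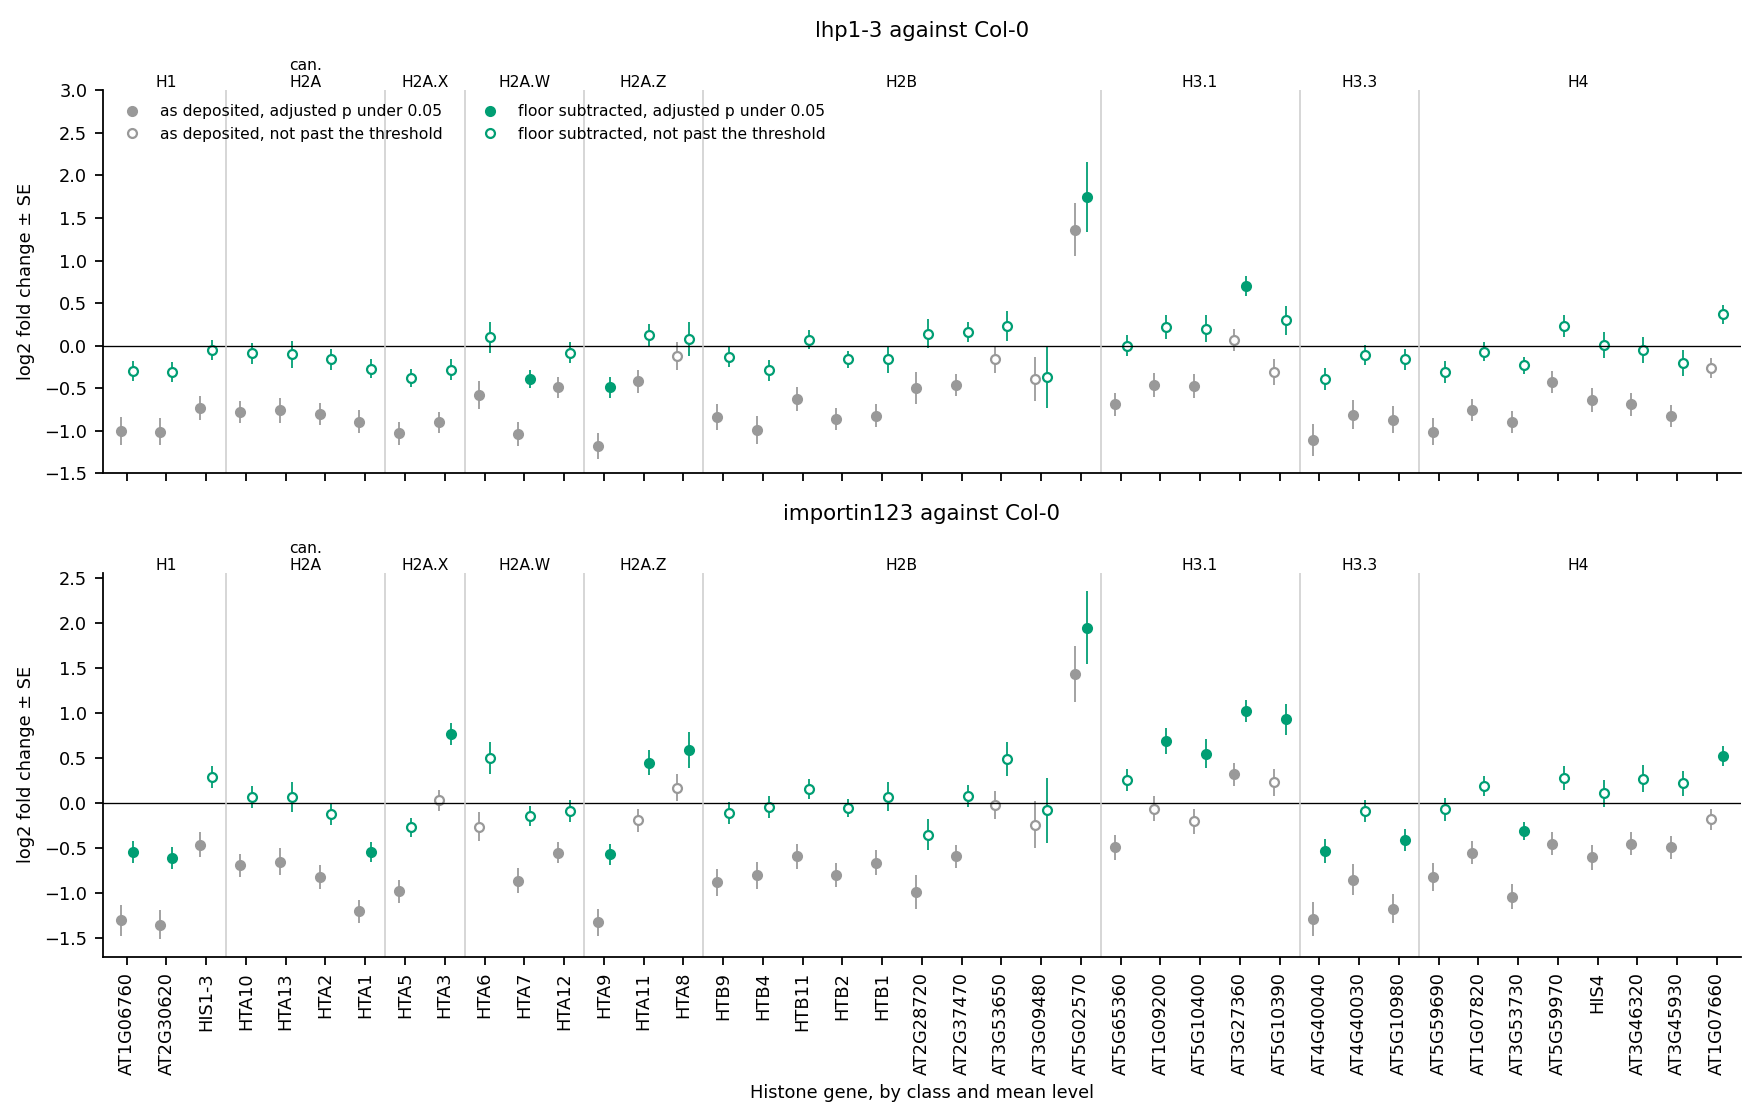
Log2 fold change ± SE of each histone gene in lhp1-3 against Col-0 (top) and importin123 against Col-0 (bottom), from the counts as deposited (grey) and after floor subtraction (green). Filled points passed an adjusted p of 0.05; grey points lie mostly below 0, and in importin123 the green points of H3.1 lie above 0 while those of AT1G06760, AT2G30620, HTA9, AT4G40040 and AT5G10980 lie below.

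The 5 H3.1 genes were the class in which importin123 stood highest against Col-0. H3.1 is the replication-dependent form of H3, placed by chromatin assembly factor CAF-1 behind the replication fork. It differs from H3.3 by a few residues, and the coding stretches below, from base 85 to base 135 of the coding sequence (RefSeq, TAIR10.1), are shown because they let reads of these classes be told apart. The 6 capitals in each mark positions where no H3.1 gene has the base of any H3.3 gene.
AT1G09200 (H3.1): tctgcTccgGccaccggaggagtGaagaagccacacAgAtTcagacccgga
AT5G10390 (H3.1): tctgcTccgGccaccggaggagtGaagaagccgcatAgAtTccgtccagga
AT4G40040 (H3.3): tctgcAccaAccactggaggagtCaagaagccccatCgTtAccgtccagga
AT5G10980 (H3.3): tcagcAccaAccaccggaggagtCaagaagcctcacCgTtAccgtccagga
All 8 of these H3 genes have a coding sequence of 411 bases. Identity was 80.3% to 89.5% between H3.1 genes, 78.6% to 88.8% between H3.3 genes and 74.0% to 80.3% between an H3.1 and an H3.3 gene.

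The annotation gives none of the H3.1 genes a symbol, and they are named by locus. AT5G65360 (chromosome 5, 26119859 to 26120581, minus strand) was the highest of them, at 54.9 and 64.5 RPKM in lhp1-3, 69.5 and 76.4 RPKM in importin123, and 71.4 and 70.4 RPKM in Col-0. Both lhp1-3 libraries lay below Col-0, and the importin123 libraries lay on either side of it. Its deposited log2 fold change was -0.69 ± 0.14 in lhp1-3 (adjusted p = 0.000311) and -0.49 ± 0.14 in importin123 (adjusted p = 0.00441), and after subtraction it was 0.00 ± 0.12 in lhp1-3 (adjusted p = 0.996) and 0.26 ± 0.12 in importin123 (adjusted p = 0.0996). The deposited calls were lost without lhp1-3 replicate 1 (-0.51, adjusted p = 0.0537) and without importin123 replicate 1 (-0.28, adjusted p = 0.106).

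AT1G09200 (chromosome 1, 2971571 to 2972334, minus strand) stood at 36.2 and 45.2 RPKM in lhp1-3, 56.7 and 56.9 RPKM in importin123, and 41.3 and 40.9 RPKM in Col-0. The importin123 libraries lay above all others, and lhp1-3 overlapped Col-0. After subtraction it rose in importin123 (0.69 ± 0.14, adjusted p = 0.00577) and stood at 0.22 ± 0.14 in lhp1-3 (adjusted p = 0.307), while the deposited values were -0.06 ± 0.14 in importin123 (adjusted p = 0.675) and -0.46 ± 0.14 in lhp1-3 (adjusted p = 0.00623). That deposited lhp1-3 call was lost without lhp1-3 replicate 1 (-0.23, adjusted p = 0.334).

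For AT5G10400 (chromosome 5, 3270172 to 3270957, minus strand), the levels were 29.1 and 36.8 RPKM in lhp1-3, 43.3 and 41 RPKM in importin123, and 31.9 and 35.0 RPKM in Col-0. Here too importin123 lay above the other libraries and lhp1-3 overlapped Col-0. The subtracted change in importin123 was 0.55 ± 0.16 (adjusted p = 0.0267), and the call was lost without Col-0 replicate 1 (0.47, adjusted p = 0.0868) and without importin123 replicate 1 (0.43, adjusted p = 0.131). In lhp1-3 it was 0.20 ± 0.16 (adjusted p = 0.413). As deposited it was -0.47 ± 0.14 in lhp1-3 (adjusted p = 0.00642, or -0.23 and 0.323 without lhp1-3 replicate 1) and -0.20 ± 0.14 in importin123 (adjusted p = 0.201).

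AT5G10390, its neighbour on the same strand (chromosome 5, 3268847 to 3269594), was singled out after its values were seen. It stood at 14.0 and 17.4 RPKM in lhp1-3, 22.7 and 25.5 RPKM in importin123, and 12.8 and 15.7 RPKM in Col-0, so that importin123 again lay above the rest. After subtraction it rose in importin123 (0.93 ± 0.17, adjusted p = 0.00391) and stood at 0.30 ± 0.17 in lhp1-3 (adjusted p = 0.267). The deposited values were 0.23 ± 0.15 in importin123 (adjusted p = 0.192) and -0.31 ± 0.15 in lhp1-3 (adjusted p = 0.0838).

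AT3G27360 (chromosome 3, 10129105 to 10129937, minus strand) was the H3.1 gene that rose on both scales in importin123. Its levels were 19.0 and 18.3 RPKM in lhp1-3, 20.8 and 26.0 RPKM in importin123, and 12.9 and 13.1 RPKM in Col-0, with both mutants above Col-0 and importin123 above lhp1-3. The deposited change in importin123 was 0.32 ± 0.13 (adjusted p = 0.0379) and the subtracted one 1.02 ± 0.12 (adjusted p = 0.000509). In lhp1-3 the deposited change was 0.07 ± 0.13 (adjusted p = 0.622) and the subtracted one 0.70 ± 0.12 (adjusted p = 0.00695). The deposited call in importin123 was lost without importin123 replicate 2 (0.16, adjusted p = 0.278), without either Col-0 library (0.29 and 0.34, adjusted p = 0.106 and 0.0574) and without lhp1-3 replicate 2 (0.32, adjusted p = 0.0573), and without importin123 replicate 1 it was 0.61. The subtracted call in lhp1-3 was lost without lhp1-3 replicate 1 (0.72, adjusted p = 0.0537). AT3G27360 shares 328 bp of its span with SDH2-1, a succinate dehydrogenase subunit gene on the same strand, whose reads cannot be told apart from its own there. SDH2-1 stood at 24.1 and 23.3 RPKM in lhp1-3, 25.9 and 25.9 RPKM in importin123, and 26.7 and 21.9 RPKM in Col-0.

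Summed over its 5 genes, H3.1 reached 153 and 182 RPKM in lhp1-3, 213 and 226 RPKM in importin123, and 170.2 and 175 RPKM in Col-0. On this scale the log2 ratio to Col-0 was -0.04 ± 0.18 in lhp1-3 and 0.35 ± 0.07 in importin123 (SD, n = 2 each), and after subtraction it was 0.19 ± 0.24 in lhp1-3 and 0.56 ± 0.08 in importin123. On the TMM-scaled deposited counts (CPM) it was -0.48 ± 0.24 in lhp1-3 and -0.18 ± 0.12 in importin123, so that the direction in importin123 turned with the scale. Of the 5 genes, 4 were called higher in importin123 after subtraction and 1 in lhp1-3.

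Of the 3 H3.3 genes, all were called lower as deposited in both mutants, and 2 were also lower in importin123 after subtraction. H3.3 is the replacement form of H3, placed outside replication by the HIRA complex and ATRX. AT4G40040 (chromosome 4, 18557149 to 18558945, minus strand), the highest of all 41 genes, stood at 179 and 191 RPKM in lhp1-3, 159.7 and 184 RPKM in importin123, and 286 and 298 RPKM in Col-0. Both mutants lay far below Col-0 and overlapped each other. It was called lower as deposited in lhp1-3 (-1.11 ± 0.19, adjusted p = 6.97e-05) and in importin123 (-1.29 ± 0.19, adjusted p = 1.24e-05). After subtraction it was lower in importin123 (-0.53 ± 0.13, adjusted p = 0.0132), a call lost without Col-0 replicate 2 (-0.48, adjusted p = 0.0838), and stood at -0.39 ± 0.13 in lhp1-3 (adjusted p = 0.0744).

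AT5G10980 (chromosome 5, 3472405 to 3473570, minus strand) had 107 and 118 RPKM in lhp1-3, 93.5 and 101 RPKM in importin123, and 151 and 151 RPKM in Col-0. Every mutant library lay below Col-0. As deposited it was lower in lhp1-3 (-0.87 ± 0.16, adjusted p = 0.000138) and in importin123 (-1.17 ± 0.16, adjusted p = 6.85e-06). After subtraction the values were -0.16 ± 0.12 in lhp1-3 (adjusted p = 0.365) and -0.41 ± 0.12 in importin123 (adjusted p = 0.0247). The subtracted call in importin123 was lost without any 1 of the Col-0 or importin123 libraries, with values of -0.42 and -0.39 without Col-0 replicates 1 and 2, and -0.42 and -0.36 without importin123 replicates 1 and 2.

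AT4G40030 (chromosome 4, 18555532 to 18557106, minus strand) lies next to AT4G40040. It stood at 119 and 121 RPKM in lhp1-3, 119 and 129 RPKM in importin123, and 151 and 159.6 RPKM in Col-0. On this scale, lowered in the mutants by floor and chloroplast reads, mutants and Col-0 again did not overlap. The deposited calls were lower, at -0.81 ± 0.17 in lhp1-3 (adjusted p = 0.000355) and -0.85 ± 0.17 in importin123 (adjusted p = 0.000211). Subtracted, it stood at -0.11 ± 0.12 in lhp1-3 (adjusted p = 0.56) and -0.09 ± 0.12 in importin123 (adjusted p = 0.564). The H3.3 sum was 405 and 430.5 RPKM in lhp1-3, 372 and 414 RPKM in importin123, and 588 and 609 RPKM in Col-0.

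The balance of the H3 forms can be read within a library, where a common scale factor cancels. H3.1 made up 27.4% and 29.7% of the summed H3 RPKM in lhp1-3, 36.4% and 35.3% in importin123, and 22.5% and 22.3% in Col-0. The 3 genotypes did not overlap, with importin123 the highest. In every other share of histone levels that was computed, importin123 also lay apart from Col-0. With 2 libraries per genotype such separation can arise by chance, so it does not set H3.1 apart. Computed from floor-subtracted reads per kb the shares were 26.7% and 29.1% in lhp1-3, 35.8% and 34.8% in importin123, and 22.4% and 22.2% in Col-0.

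**Figure D3:**
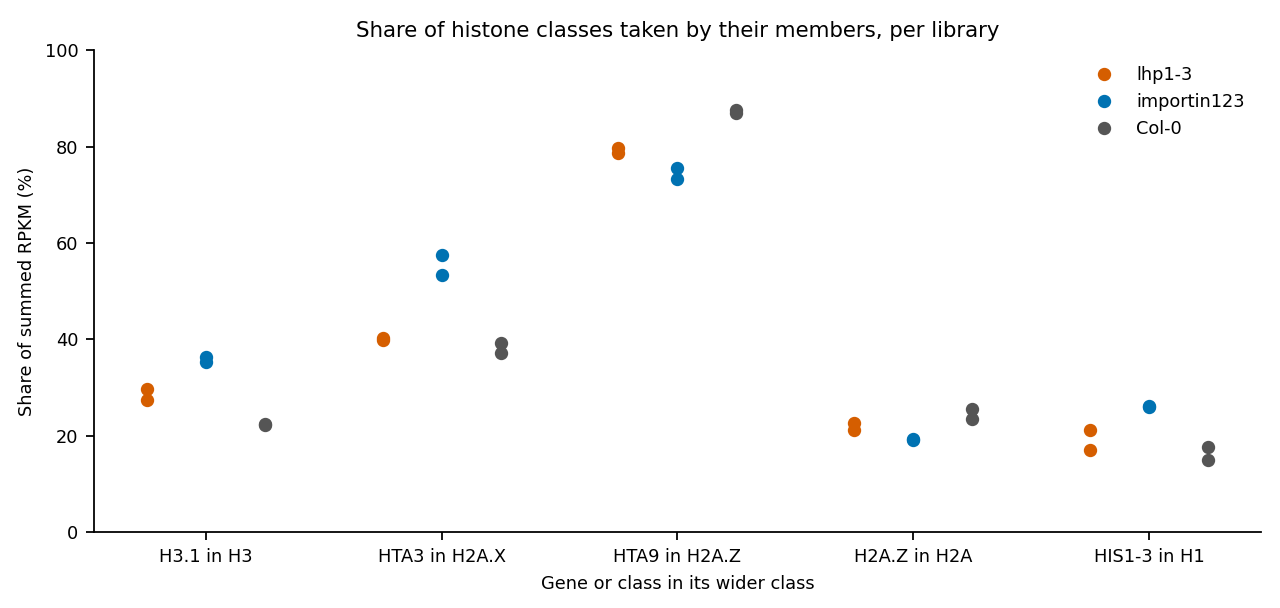
Share (%) of summed RPKM that H3.1 took of H3, HTA3 of H2A.X, HTA9 of H2A.Z, H2A.Z of H2A and HIS1-3 of H1, with 1 point per library of lhp1-3, importin123 and Col-0. H3.1 reached 35.3% and 36.4% of H3 in importin123 against 22.3% and 22.5% in Col-0, and HTA9 lay between 73.2% and 79.8% of H2A.Z in the mutant libraries.

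Promoters of replication-dependent histone genes of plants are known for the octamer CGCGGATC and the hexamer ACGTCA, and S-phase genes for E2F sites. In the 250 bases before the annotated gene start, searched on both strands, the octamer was present in 10 of the 41 genes (24.4%) and in 37 of 27443 protein-coding nuclear genes (0.135%). It was found in 3 of 5 H3.1 genes, 2 of 4 canonical H2A genes, 2 of 8 H4 genes and 0 of 10 H2B genes. By type it was in 7 of 27 replication-dependent genes (25.9%). It was in 2 of the 8 other genes (25.0%), AT1G06760 of H1 and HTA6 of H2A.W, and in 1 of 6 replacement genes (16.7%), AT4G40040. The hexamer was present in 11 of 41 (26.8%), of which 8 were H2B genes, and in 7.69% of all promoters. E2F-like octamers (TTTCCCGC, TTTCGCGC, TTTGCCGC or TTTGGCGC) were in 3 of 41 (7.32%) and in 1.41% of all promoters. Each promoter was scored for each motif separately. AT5G10400 held both the octamer and the hexamer, and HTB2 both the hexamer and an E2F-like octamer. The promoters of 3 H3.1 genes that were called higher in importin123 after subtraction are shown because they hold 2 octamers, 1 octamer and none. Coordinates are those of the RefSeq TAIR10.1 assembly, letters run 5′ to 3′ on the strand of the gene, and capitals mark the octamer.
AT1G09200, chr1:2972335-2972584, minus strand: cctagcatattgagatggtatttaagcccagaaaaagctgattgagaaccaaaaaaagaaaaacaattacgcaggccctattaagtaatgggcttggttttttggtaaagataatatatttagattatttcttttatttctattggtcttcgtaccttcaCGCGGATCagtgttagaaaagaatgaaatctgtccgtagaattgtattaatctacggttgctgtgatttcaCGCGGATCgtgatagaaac
AT5G10400, chr5:3270958-3271207, minus strand: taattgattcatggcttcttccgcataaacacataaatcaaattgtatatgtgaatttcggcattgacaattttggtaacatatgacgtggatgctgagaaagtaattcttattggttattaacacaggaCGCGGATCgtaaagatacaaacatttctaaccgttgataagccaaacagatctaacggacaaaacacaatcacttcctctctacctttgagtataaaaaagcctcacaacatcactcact
AT5G10390, chr5:3269595-3269844, minus strand: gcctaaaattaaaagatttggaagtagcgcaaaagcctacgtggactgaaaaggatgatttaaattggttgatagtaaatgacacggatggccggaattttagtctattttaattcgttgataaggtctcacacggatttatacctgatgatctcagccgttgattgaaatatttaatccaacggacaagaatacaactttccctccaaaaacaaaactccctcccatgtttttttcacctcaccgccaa
All 3 genes were called higher in importin123 after subtraction, and a match in these letters is a description of the window only.

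The 8 H4 genes, the replication-dependent partners of H3, were spread in both directions after subtraction. AT5G59690 (chromosome 5, 24051474 to 24052218, plus strand), the highest, stood at 68.8 and 86.4 RPKM in lhp1-3, 87.3 and 99.8 RPKM in importin123, and 117 and 112 RPKM in Col-0. All mutant libraries lay below Col-0. It was called lower as deposited, at -1.01 ± 0.16 in lhp1-3 (adjusted p = 3.39e-05) and -0.82 ± 0.16 in importin123 (adjusted p = 0.000175), and after subtraction stood at -0.31 ± 0.13 in lhp1-3 (adjusted p = 0.153) and -0.07 ± 0.13 in importin123 (adjusted p = 0.717).

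AT1G07660 (chromosome 1, 2368833 to 2369735, plus strand) was the H4 gene called higher. It had 20.2 and 21.4 RPKM in lhp1-3, 23.0 and 23.7 RPKM in importin123, and 18.7 and 17.9 RPKM in Col-0, with importin123 the highest, Col-0 the lowest and no overlap. The subtracted change was 0.52 ± 0.11 in importin123 (adjusted p = 0.00706) and 0.37 ± 0.11 in lhp1-3 (adjusted p = 0.0536). As deposited it was -0.18 ± 0.12 in importin123 (adjusted p = 0.178) and -0.26 ± 0.12 in lhp1-3 (adjusted p = 0.0549).

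AT3G53730 (chromosome 3, 19912385 to 19913515, minus strand) was the H4 gene called lower on both scales in importin123. Its levels were 40.5 and 42.6 RPKM in lhp1-3, 37.9 and 42.0 RPKM in importin123, and 59.5 and 54.7 RPKM in Col-0, with both mutants below Col-0. As deposited it was -0.90 ± 0.13 in lhp1-3 (adjusted p = 2.16e-05) and -1.04 ± 0.14 in importin123 (adjusted p = 3.96e-06). Subtracted, it was -0.23 ± 0.10 in lhp1-3 (adjusted p = 0.141) and -0.31 ± 0.10 in importin123 (adjusted p = 0.0315), a call lost without any 1 of the Col-0 and importin123 libraries (-0.27 and -0.36 without Col-0 replicates 1 and 2, -0.30 without either importin123 library).

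Of the remaining named H4 genes, AT1G07820 (chromosome 1, 2421089 to 2422066, minus strand) had 39.0 and 44.1 RPKM in lhp1-3, 49.1 and 52.0 RPKM in importin123, and 52.8 and 50.1 RPKM in Col-0, and AT3G45930 had 19.2 and 23.7 RPKM in lhp1-3, 28.6 and 28.8 RPKM in importin123, and 28.2 and 27.7 RPKM in Col-0. In both, lhp1-3 lay below the other genotypes. AT1G07820 was called lower as deposited in lhp1-3 (-0.75 ± 0.13, adjusted p = 0.000106) and in importin123 (-0.55 ± 0.13, adjusted p = 0.00126), and after subtraction stood at -0.07 ± 0.11 in lhp1-3 (adjusted p = 0.676) and 0.19 ± 0.11 in importin123 (adjusted p = 0.2). AT3G45930 was likewise lower as deposited in lhp1-3 (-0.83 ± 0.13, adjusted p = 4.05e-05) and in importin123 (-0.49 ± 0.13, adjusted p = 0.00289), the importin123 call being lost without importin123 replicate 1 (-0.34, adjusted p = 0.0941). After subtraction it stood at -0.20 ± 0.15 in lhp1-3 (adjusted p = 0.381) and 0.22 ± 0.14 in importin123 (adjusted p = 0.248). AT3G45930 and AT3G46320 are uncertain, since 56.5% and 61.0% of their spans match other places in the genome in stretches of 50 bp or longer that are at least 95% identical. The other 39 histone genes had no such copy. AT3G46320, HIS4 and AT5G59970 had means of 26.1 to 31.5 RPKM over all libraries, were called lower as deposited in both mutants and were not called after subtraction. Their deposited calls were lost without lhp1-3 replicate 1 for HIS4 (-0.42) and AT5G59970 (-0.23) in lhp1-3, and without importin123 replicate 1 for HIS4 (-0.41), AT5G59970 (-0.28) and AT3G46320 (-0.35, or -0.39 without importin123 replicate 2) in importin123. The H4 sum was 261 and 308 RPKM in lhp1-3, 317 and 338 RPKM in importin123, and 369 and 349 RPKM in Col-0.

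Of the 4 canonical H2A genes, which pair with H2B in the core, all were called lower as deposited in both mutants, and HTA1 was also lower in importin123 after subtraction. HTA1 (AT5G54640, chromosome 5, 22196287 to 22197492, plus strand) stood at 19.8 and 22.0 RPKM in lhp1-3, 17.4 and 18.5 RPKM in importin123, and 29.5 and 27.6 RPKM in Col-0. The genotypes did not overlap, with importin123 the lowest. The deposited change was -0.89 ± 0.13 in lhp1-3 (adjusted p = 1.24e-05) and -1.20 ± 0.13 in importin123 (adjusted p = 5.01e-07), and the subtracted one -0.27 ± 0.11 in lhp1-3 (adjusted p = 0.137) and -0.54 ± 0.11 in importin123 (adjusted p = 0.00637).

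HTA10 (AT1G51060), the highest of them, had 49.0 and 55 RPKM in lhp1-3, 60.6 and 57.1 RPKM in importin123, and 64.6 and 66.6 RPKM in Col-0. HTA13 (AT3G20670) had 26.5 and 34.1 RPKM in lhp1-3, 33.8 and 35.7 RPKM in importin123, and 34.3 and 41.3 RPKM in Col-0. HTA2 (AT4G27230) had 21.1 and 24.1 RPKM in lhp1-3, 23.2 and 24.1 RPKM in importin123, and 29.9 and 28 RPKM in Col-0. Apart from HTA13, where an importin123 library lay within the range of Col-0, every mutant library lay below Col-0. Their deposited log2 fold changes were -0.78 ± 0.13, -0.76 ± 0.15 and -0.80 ± 0.13 in lhp1-3 and -0.69 ± 0.13, -0.65 ± 0.15 and -0.82 ± 0.13 in importin123, in the order HTA10, HTA13 and HTA2. After subtraction HTA10 and HTA13 stood at -0.09 ± 0.12 and -0.10 ± 0.16 in lhp1-3 and at 0.07 ± 0.12 and 0.07 ± 0.17 in importin123, and HTA2 at -0.16 ± 0.12 in lhp1-3 and -0.12 ± 0.12 in importin123 (adjusted p of 0.37 to 0.755 over the 6 values). The deposited importin123 call of HTA13 was lost without importin123 replicate 1 (-0.47, adjusted p = 0.0824).

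H2B, the partner of H2A, spanned the widest range of levels among the classes. HTB9 (AT3G45980, chromosome 3, 16897287 to 16898013, minus strand) had 106 and 119 RPKM in lhp1-3, 115 and 118 RPKM in importin123, and 150.0 and 146 RPKM in Col-0. HTB4 (AT5G59910, chromosome 5, 24126877 to 24128162, plus strand) had 73.5 and 83.0 RPKM in lhp1-3, 93.6 and 95.2 RPKM in importin123, and 115 and 112 RPKM in Col-0. For both, every mutant library lay below Col-0. HTB9 was called lower as deposited (-0.84 ± 0.15 in lhp1-3, adjusted p = 0.000103, and -0.88 ± 0.15 in importin123, adjusted p = 5.61e-05), as was HTB4 (-0.99 ± 0.16 in lhp1-3, adjusted p = 3.71e-05, and -0.80 ± 0.15 in importin123, adjusted p = 0.000202). Neither was called after subtraction, with -0.13 ± 0.12 in lhp1-3 and -0.11 ± 0.12 in importin123 for HTB9, and -0.29 ± 0.12 in lhp1-3 and -0.04 ± 0.12 in importin123 for HTB4. HTB9 shares up to 249 bp with AT3G07315 and EXLA1 on the opposite strand, and the use of strand in counting is not given in the sources used here. AT3G07315 stood at 108 and 124 RPKM in lhp1-3, 120 and 121 RPKM in importin123, and 188 and 181 RPKM in Col-0. EXLA1 stood at 27.8 and 23.0 RPKM in lhp1-3, 14.3 and 17.5 RPKM in importin123, and 16.3 and 25.9 RPKM in Col-0. Where they overlap, their reads cannot be told apart from those of HTB9 without strand.

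AT2G28720 varied between the libraries of a genotype. It had 23.6 and 22.4 RPKM in lhp1-3, 14.2 and 20.5 RPKM in importin123, and 27.4 and 20.6 RPKM in Col-0. The lhp1-3 libraries lay within the range of Col-0, and those of importin123 below it, 1 of them only just. It was called lower as deposited in lhp1-3 (-0.50 ± 0.19, adjusted p = 0.034) and in importin123 (-0.99 ± 0.19, adjusted p = 0.00103), and after subtraction stood at 0.14 ± 0.17 in lhp1-3 (adjusted p = 0.619) and -0.35 ± 0.17 in importin123 (adjusted p = 0.146). The lhp1-3 call was lost without Col-0 replicate 1 (-0.31, adjusted p = 0.0831) and without either lhp1-3 library (-0.46 and -0.51, adjusted p = 0.149 and 0.135), and without importin123 replicate 1 the importin123 value was -0.61.

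AT5G02570 was the histone gene with the largest fold change. It stood at 3.70 and 4.68 RPKM in lhp1-3, 5.58 and 3.78 RPKM in importin123, and 1.07 and 1.31 RPKM in Col-0, with both mutants above Col-0. It was called higher as deposited in lhp1-3 (1.36 ± 0.31, adjusted p = 0.000785) and in importin123 (1.43 ± 0.31, adjusted p = 0.0005), and after subtraction (1.75 ± 0.41 in lhp1-3, adjusted p = 0.0259, and 1.95 ± 0.41 in importin123, adjusted p = 0.0072). The floor was 18.9% to 41.2% of its counts, so that it lay near the limit of what could be measured. The subtracted lhp1-3 call was lost without any 1 of the lhp1-3 or Col-0 libraries (1.40 to 2.05). Its whole span of 522 bp (chromosome 5, 576655 to 577176, minus strand) lies inside HTA12 on the opposite strand.

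AT3G53650 had 6.12 and 6.23 RPKM in lhp1-3, 7.58 and 6.90 RPKM in importin123, and 4.79 and 5.35 RPKM in Col-0, with both mutants above Col-0, and was not called as deposited (-0.16 ± 0.16 in lhp1-3, adjusted p = 0.372, and -0.02 ± 0.16 in importin123, adjusted p = 0.918). After subtraction it stood at 0.23 ± 0.18 in lhp1-3 (adjusted p = 0.417) and 0.49 ± 0.19 in importin123 (adjusted p = 0.0654). HTB11, HTB2, HTB1 and AT2G37470, with means of 19.4 to 87.9 RPKM over all libraries, were called lower as deposited in both mutants and not called after subtraction, and AT3G09480, at a mean of 3.60 RPKM, was called in neither. In lhp1-3 the deposited calls of HTB11 (-0.48) and AT2G37470 (-0.29) were lost without lhp1-3 replicate 1, and in importin123 their values without importin123 replicate 1 were -0.38 and -0.39. Summed H2B levels were 399 and 440.0 RPKM in lhp1-3, 443 and 464 RPKM in importin123, and 538 and 516 RPKM in Col-0.

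The H2A.X genes, whose product is phosphorylated at DNA breaks, parted from each other. HTA3 (AT1G54690, chromosome 1, 20414316 to 20415287, minus strand) stood at 18.5 and 20.1 RPKM in lhp1-3, 40.3 and 37.7 RPKM in importin123, and 26.9 and 26.1 RPKM in Col-0. The lhp1-3 libraries were the lowest and the importin123 libraries the highest, with no overlap. HTA5 (AT1G08880, chromosome 1, 2846894 to 2848100, minus strand) stood at 27.3 and 30.2 RPKM in lhp1-3, 29.8 and 33.1 RPKM in importin123, and 45.7 and 40.5 RPKM in Col-0, and both mutants lay below Col-0.

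HTA3 rose in importin123 after subtraction (0.77 ± 0.12, adjusted p = 0.00213), while its deposited change was 0.03 ± 0.12 (adjusted p = 0.843). In lhp1-3 it was called lower as deposited (-0.90 ± 0.12, adjusted p = 8.29e-06) and stood at -0.28 ± 0.12 after subtraction (adjusted p = 0.154). For HTA5 the deposited values were -1.03 ± 0.13 in lhp1-3 (adjusted p = 6.63e-06) and -0.98 ± 0.13 in importin123 (adjusted p = 6.9e-06), and the subtracted ones -0.38 ± 0.11 in lhp1-3 (adjusted p = 0.0507) and -0.27 ± 0.11 in importin123 (adjusted p = 0.0791). HTA3 made up 40.4% and 39.9% of the summed H2A.X RPKM in lhp1-3, 57.5% and 53.3% in importin123, and 37.1% and 39.2% in Col-0. HTA3 shares up to 259 bp with AT1G54680 and AT1G07983 on the opposite strand. AT1G07983 stood at 35.5 and 41 RPKM in lhp1-3, 83.8 and 77.3 RPKM in importin123, and 58.9 and 54.4 RPKM in Col-0, and its reads cannot be told apart from those of HTA3 without strand.

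Of the 3 H2A.W genes, whose product marks heterochromatin in plants, HTA6 (AT5G59870) had 37.2 and 52.2 RPKM in lhp1-3, 59.3 and 59.3 RPKM in importin123, and 48.3 and 49.8 RPKM in Col-0. HTA7 (AT5G27670) had 28.2 and 31.5 RPKM in lhp1-3, 32.9 and 39.1 RPKM in importin123, and 45.1 and 45.2 RPKM in Col-0. HTA12 (AT5G02560) had 7.02 and 6.40 RPKM in lhp1-3, 6.78 and 6.91 RPKM in importin123, and 7.26 and 6.60 RPKM in Col-0. HTA6 was highest in importin123, HTA7 lay below Col-0 in both mutants, and HTA12 overlapped throughout.

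HTA7 was called lower as deposited in lhp1-3 (-1.04 ± 0.14, adjusted p = 7.46e-06) and in importin123 (-0.86 ± 0.14, adjusted p = 3.5e-05), and after subtraction in lhp1-3 (-0.39 ± 0.11, adjusted p = 0.046) but not in importin123 (-0.14 ± 0.11, adjusted p = 0.336). That subtracted lhp1-3 call was lost without any 1 library other than lhp1-3 replicate 2, with the lowest size, -0.26, without lhp1-3 replicate 1. HTA6 was called lower as deposited in lhp1-3 (-0.58 ± 0.16, adjusted p = 0.00432), which was -0.28 without lhp1-3 replicate 1 (adjusted p = 0.26) and -0.89 without lhp1-3 replicate 2, and stood at -0.26 ± 0.16 in importin123 (adjusted p = 0.149). Its subtracted values were 0.10 ± 0.18 in lhp1-3 (adjusted p = 0.717) and 0.50 ± 0.18 in importin123 (adjusted p = 0.0567). HTA12 was lower as deposited in lhp1-3 (-0.49 ± 0.12, adjusted p = 0.00132) and importin123 (-0.55 ± 0.12, adjusted p = 0.000562), and after subtraction stood at -0.08 ± 0.12 in lhp1-3 and -0.09 ± 0.12 in importin123 (adjusted p = 0.661 and 0.572). It shares 522 bp with AT5G02570 on the opposite strand.

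H2A.Z, the replacement variant that the SWR1 complex exchanges into nucleosomes near gene starts, was split between its genes. HTA9 (AT1G52740, chromosome 1, 19645236 to 19646485, plus strand), its main gene, stood at 54.6 and 58.8 RPKM in lhp1-3, 53.3 and 56.0 RPKM in importin123, and 88.6 and 99.7 RPKM in Col-0. The mutants overlapped each other and lay below Col-0. HTA9 fell on both scales. The deposited change was -1.18 ± 0.15 in lhp1-3 (adjusted p = 4.96e-06) and -1.32 ± 0.15 in importin123 (adjusted p = 1.1e-06), and the subtracted one -0.49 ± 0.12 in lhp1-3 (adjusted p = 0.0267) and -0.57 ± 0.12 in importin123 (adjusted p = 0.00602). The subtracted lhp1-3 call was lost without either lhp1-3 library (-0.39 and -0.58, adjusted p = 0.162 and 0.0513) and without Col-0 replicate 2 (-0.39, adjusted p = 0.15).

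HTA11 (AT3G54560) had 9.83 and 11.5 RPKM in lhp1-3, 13.6 and 12.8 RPKM in importin123, and 10.3 and 10.6 RPKM in Col-0. HTA8 (AT2G38810) had 4.01 and 4.54 RPKM in lhp1-3, 5.89 and 5.27 RPKM in importin123, and 3.15 and 3.68 RPKM in Col-0. In both genes importin123 was the highest. After subtraction HTA11 rose in importin123 (0.45 ± 0.14, adjusted p = 0.0382), as did HTA8 (0.59 ± 0.20, adjusted p = 0.0456). Those calls were lost without either Col-0 library (HTA11 at 0.41 and 0.48, HTA8 at 0.47 and 0.72), without importin123 replicate 1 (0.35 and 0.48) and, for HTA8, without importin123 replicate 2 (0.72).

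As deposited, HTA11 was called lower in lhp1-3 (-0.42 ± 0.13, adjusted p = 0.00675, or -0.23 and 0.271 without lhp1-3 replicate 1) and stood at -0.19 ± 0.13 in importin123 (adjusted p = 0.169), and its subtracted lhp1-3 value was 0.12 ± 0.14 (adjusted p = 0.588). HTA8 stood as deposited at -0.12 ± 0.16 in lhp1-3 (adjusted p = 0.472) and 0.17 ± 0.15 in importin123 (adjusted p = 0.314), and at 0.08 ± 0.20 in lhp1-3 after subtraction (adjusted p = 0.8). The floor was 6.55% to 38.1% of the counts of HTA8. HTA9 made up 79.8% and 78.6% of the summed H2A.Z RPKM in lhp1-3, 73.2% and 75.6% in importin123, and 86.9% and 87.5% in Col-0, with no overlap. H2A.Z as a whole made up 22.6% and 21.3% of all H2A in lhp1-3, 19.3% and 19.2% in importin123, and 23.5% and 25.6% in Col-0.

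Both main genes of linker histone H1 had lower RPKM in the mutants, and after subtraction they were called lower in importin123 only. AT1G06760 (chromosome 1, 2076504 to 2077767, minus strand) stood at 129.8 and 139.7 RPKM in lhp1-3, 113 and 119 RPKM in importin123, and 203 and 194 RPKM in Col-0. AT2G30620 (chromosome 2, 13044931 to 13046682, plus strand) stood at 75.1 and 80.3 RPKM in lhp1-3, 61.8 and 67.9 RPKM in importin123, and 122 and 108 RPKM in Col-0. In both genes the genotypes did not overlap, with importin123 the lowest.

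AT1G06760 was called lower as deposited in lhp1-3 (-1.0 ± 0.16, adjusted p = 5.1e-05) and importin123 (-1.30 ± 0.17, adjusted p = 3.22e-06). After subtraction it was lower in importin123 (-0.54 ± 0.12, adjusted p = 0.00888) and stood at -0.30 ± 0.12 in lhp1-3 (adjusted p = 0.128). For AT2G30620 the deposited values were -1.01 ± 0.16 in lhp1-3 (adjusted p = 4.41e-05) and -1.35 ± 0.16 in importin123 (adjusted p = 1.96e-06), and the subtracted ones -0.31 ± 0.12 (adjusted p = 0.11) in lhp1-3 and -0.61 ± 0.12 (adjusted p = 0.00497) in importin123. AT1G06760 overlaps AT1G06750 and AT1G04503 on the opposite strand over up to 484 bp, and AT1G04503 moved with it (135 and 148 RPKM in lhp1-3, 120 and 128 RPKM in importin123, and 220 and 209 RPKM in Col-0).

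HIS1-3 (AT2G18050), the linker histone induced by drought, stood at 55.6 and 45 RPKM in lhp1-3, 61.5 and 66.7 RPKM in importin123, and 57.3 and 64.9 RPKM in Col-0. The lhp1-3 libraries lay below both other genotypes, and importin123 overlapped Col-0, while HIS1-3 was lower as deposited in lhp1-3 (-0.73 ± 0.14, adjusted p = 0.000272) and in importin123 (-0.46 ± 0.14, adjusted p = 0.00822). The importin123 call was lost without Col-0 replicate 2 (-0.35), importin123 replicate 1 (-0.26) and lhp1-3 replicate 1 (-0.38). Subtracted, it stood at -0.05 ± 0.12 in lhp1-3 (adjusted p = 0.81) and 0.29 ± 0.12 in importin123 (adjusted p = 0.0868). HIS1-3 made up 21.3% and 17.0% of summed H1 RPKM in lhp1-3, 26.0% and 26.3% in importin123, and 15% and 17.7% in Col-0, so that importin123 stood apart and lhp1-3 overlapped Col-0.

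By type, replication-dependent genes summed to 929.7 and 1065 RPKM in lhp1-3, 1108 and 1164 RPKM in importin123, and 1235 and 1204 RPKM in Col-0. Replacement genes summed to 473 and 505 RPKM in lhp1-3, 445 and 488 RPKM in importin123, and 689.9 and 723 RPKM in Col-0. Both types lay below Col-0 in each mutant on this scale, replacement genes by more. After subtraction the log2 ratio to Col-0 was -0.08 ± 0.19 in lhp1-3 and 0.08 ± 0.07 in importin123 for replication-dependent genes (SD, n = 2 each), and -0.29 ± 0.14 in lhp1-3 and -0.38 ± 0.07 in importin123 for replacement genes. In importin123, 6 of 27 replication-dependent genes were then called higher and 2 lower, and 2 of 6 replacement genes were called higher and 3 lower, where 19.3% of all genes were called higher and 21.7% lower. The 8 other genes had 1 higher and 2 lower calls. On the TMM-scaled deposited counts, whose class sums lay below Col-0 throughout, the direction in importin123 turned for more than H3.1: H2A.X stood at -0.57 ± 0.09 and 0.16 after subtraction, H2A.W at -0.55 ± 0.11 and 0.16, H4 at -0.68 ± 0.12 and 0.05, and the replication-dependent sum at -0.66 ± 0.09 and 0.08.

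**Figure D4:**
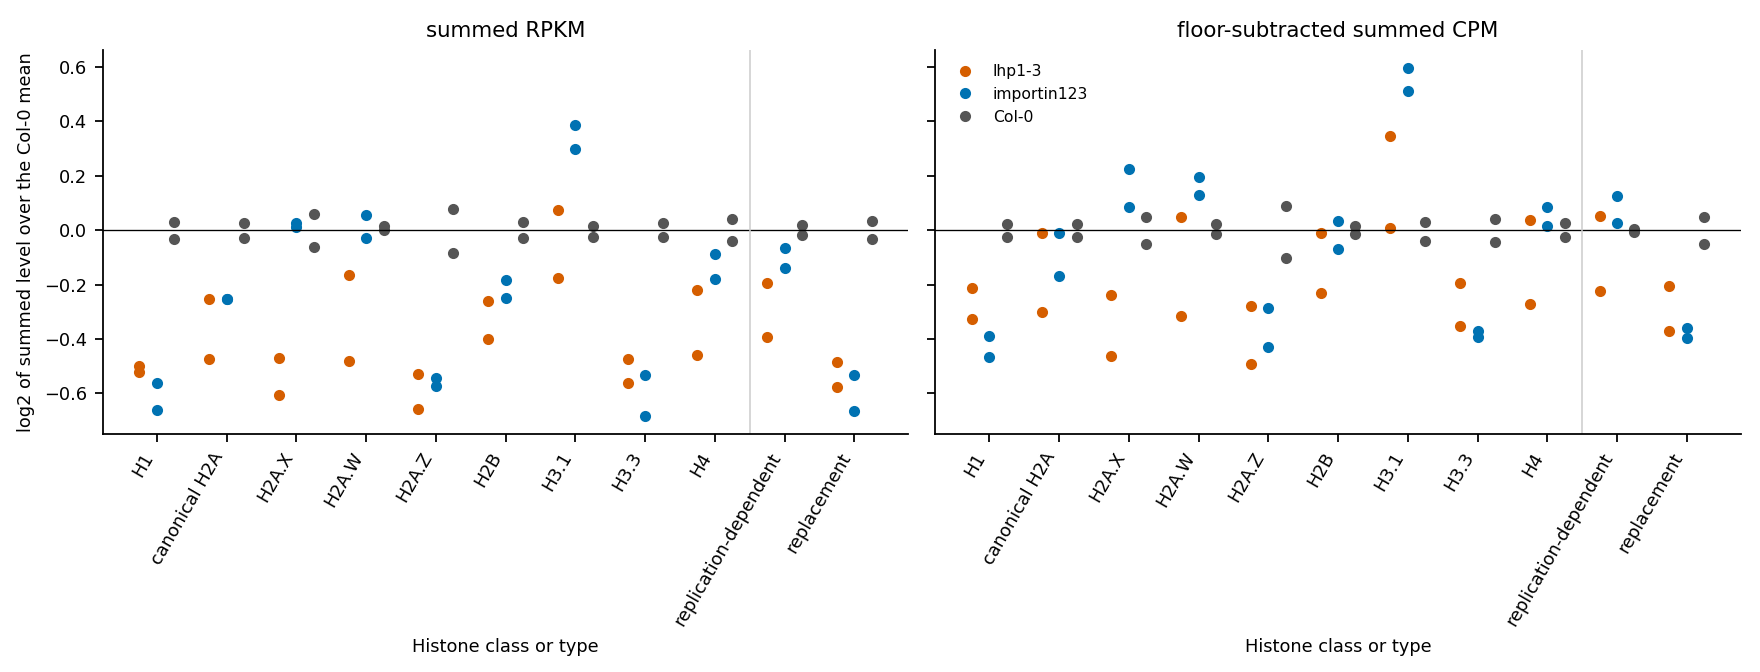
Log2 of the summed level of each histone class and type in each library over the Col-0 mean, from summed RPKM (left) and from floor-subtracted summed CPM (right), with 1 point per library of lhp1-3, importin123 and Col-0. H3.1 in importin123 lies above the Col-0 libraries in both panels, and H1, H2A.Z and H3.3 lie below them in both mutants.

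Between the mutants, few histone genes differed. In importin123 against lhp1-3, 2 of the 41 were called higher as deposited (2.84% over all features) and 0 lower (6.05%) by edgeR, with 4 higher and 3 lower at an unadjusted p under 0.05. DESeq2 called 1 higher and 0 lower. HTA3 was higher in importin123 by 0.93 ± 0.12 (adjusted p = 6.04e-05) and AT5G10390 by 0.53 ± 0.15 (adjusted p = 0.0431). After subtraction 3 were called higher (9.15% over all genes tested) and 0 lower (13.4%, with 3 lower at an unadjusted p under 0.05): HTA3 (1.05 ± 0.12, adjusted p = 0.00105), AT5G10390 (0.63 ± 0.17, adjusted p = 0.0322) and AT1G09200 (0.47 ± 0.14, adjusted p = 0.0442).

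HTA3 alone was kept without each library in turn, on both scales. AT5G10390 lost its deposited call without lhp1-3 replicate 1 (0.39, adjusted p = 0.476) and without either importin123 library (0.70 and 0.41, adjusted p = 0.114 and 0.334), and its subtracted call without the same libraries (0.44, 0.64 and 0.61). AT1G09200 lost its subtracted call without the same 3 libraries (0.28 without lhp1-3 replicate 1, 0.38 and 0.53 without importin123 replicates 1 and 2). Among the genes with a mean of at least 10 RPKM, 5 histone genes were called higher (15% over all) and 0 lower (21.2%, with 4 lower at an unadjusted p under 0.05).

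Genes that act on histones were set beside them. Of 17 chaperones and remodellers tested after subtraction, 8 were called higher and 1 lower in importin123 (19.3% and 21.7% over all genes), and 3 higher and 0 lower in lhp1-3 (9.08% and 7.17%, with 0 lower at an unadjusted p under 0.05). The median log2 fold change was 0.23 in importin123 and 0.13 in lhp1-3. As deposited the 20 genes had 6 higher and 6 lower calls in importin123 (42.3% and 33.2% over all features) and 6 higher and 8 lower in lhp1-3 (41.8% and 33.5%), and DESeq2 gave 6 and 9 in importin123 and 6 and 10 in lhp1-3.

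NAP1;1, a chaperone of H2A and H2B, stood at 15.4 and 15 RPKM in lhp1-3, 20.9 and 20.6 RPKM in importin123, and 15.8 and 14.3 RPKM in Col-0. It rose in importin123 after subtraction (0.63 ± 0.10, adjusted p = 0.00214) and stood at -0.07 ± 0.13 as deposited (adjusted p = 0.648). NRP1, a related chaperone, rose in importin123 after subtraction (0.53 ± 0.09, adjusted p = 0.00262) and stood at -0.16 ± 0.13 as deposited (adjusted p = 0.258). In lhp1-3 both were called lower as deposited (NAP1;1 -0.43 ± 0.13, adjusted p = 0.00639, and NRP1 -0.52 ± 0.13, adjusted p = 0.00161) and not called after subtraction (0.17 ± 0.10 for NAP1;1 and 0.09 ± 0.09 for NRP1). The deposited calls were lost without lhp1-3 replicate 1 (-0.37 for NAP1;1 and -0.47 for NRP1), and for NAP1;1 also without Col-0 replicate 1 (-0.38). PIE1, the ATPase of the SWR1 complex that places H2A.Z, rose on both scales, after subtraction by 1.29 ± 0.18 in importin123 (adjusted p = 0.00111) and 1.5 ± 0.18 in lhp1-3 (adjusted p = 0.0019). ARP6, another SWR1 subunit, was lower in importin123 on both scales (-0.53 ± 0.13 after subtraction, adjusted p = 0.0149, and -0.96 ± 0.13 as deposited, adjusted p = 5.89e-06), the subtracted call being lost without Col-0 replicate 2 (-0.48) and without importin123 replicate 1 (-0.37). NAP1;3 rose after subtraction in importin123 (0.96 ± 0.14, adjusted p = 0.00161) and in lhp1-3 (0.72 ± 0.14, adjusted p = 0.0143), and as deposited it was not called (0.31 ± 0.14 in importin123 and 0.15 ± 0.14 in lhp1-3). Its lhp1-3 call was lost without Col-0 replicate 2 (0.51) and without either lhp1-3 library (0.66 and 0.78). ATRX, which acts on H3.3, was called higher after subtraction in importin123 (1.45 ± 0.35, adjusted p = 0.02) and in lhp1-3 (1.51 ± 0.35, adjusted p = 0.0373), and as deposited (1.28 ± 0.15 in importin123 and 1.34 ± 0.15 in lhp1-3). Its subtracted calls were lost without either Col-0 library in both mutants (1.59 and 1.33 in importin123, 1.65 and 1.39 in lhp1-3), without importin123 replicate 2 (1.08) and without lhp1-3 replicate 1 (1.02).

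S-phase and DNA replication genes, which act while replication-dependent histones are made, had 14 of 19 tested members called higher and 0 lower in importin123 after subtraction, and 3 higher and 0 lower in lhp1-3 (0 lower at an unadjusted p under 0.05 in both). Over all genes 19.3% were called higher and 21.7% lower in importin123, and 9.08% and 7.17% in lhp1-3. The median log2 fold change of the list was 0.68 in importin123 and 0.32 in lhp1-3. As deposited 15 of 21 were called higher and 3 lower in importin123 (42.3% and 33.2% over all features), and 12 higher and 5 lower in lhp1-3 (41.8% and 33.5%). DESeq2 on the same counts gave fewer higher calls, 9 against 3 lower in importin123 and 5 against 5 lower in lhp1-3. A mean of at least 10 RPKM leaves out members near the floor. Among such genes, 1 of the list was called higher in importin123 (27.3% over all genes). In lhp1-3 there were 0 (10.2%, with 0 at an unadjusted p under 0.05). How many of the list reached that mean is not given here, so these counts cannot be set against those above.

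TSO2, a small subunit of ribonucleotide reductase, stood at 18.1 and 21.2 RPKM in lhp1-3, 43.5 and 43.0 RPKM in importin123, and 19.6 and 21.8 RPKM in Col-0. It rose in importin123 after subtraction (1.28 ± 0.14, adjusted p = 0.000365) and as deposited (0.53 ± 0.14, adjusted p = 0.00233). RNR1, the large subunit, rose in importin123 after subtraction (0.89 ± 0.09, adjusted p = 0.00032) and stood at 0.26 ± 0.12 as deposited (adjusted p = 0.0694). MCM2, a subunit of the replicative helicase, lies near the floor, at 4.11 and 3.65 RPKM in lhp1-3, 5.18 and 5.69 RPKM in importin123, and 1.67 and 1.52 RPKM in Col-0. It rose on both scales in importin123 (1.75 ± 0.14 after subtraction, adjusted p = 0.000113, and 1.24 ± 0.12 as deposited) and in lhp1-3 (1.08 ± 0.14 after subtraction, adjusted p = 0.00232, and 0.83 ± 0.12 as deposited). ICU2, the catalytic subunit of DNA polymerase alpha, did so too (after subtraction 1.23 ± 0.13 in importin123, adjusted p = 0.000329, and 1.62 ± 0.13 in lhp1-3, adjusted p = 0.000442). CDT1A, which licenses origins, rose after subtraction in importin123 (1.46 ± 0.16, adjusted p = 0.000408) and was called higher in lhp1-3 (0.70 ± 0.16, adjusted p = 0.0219), a call lost without Col-0 replicate 2 (0.65) and without lhp1-3 replicate 2 (0.54). As deposited TSO2 and RNR1 were called lower in lhp1-3 (-0.52 ± 0.14, adjusted p = 0.00271, and -0.37 ± 0.12, adjusted p = 0.0135), where after subtraction TSO2 stood at 0.10 ± 0.13 and RNR1 at 0.09 ± 0.09 and neither was called. Both deposited calls were lost without lhp1-3 replicate 1 (-0.34 for TSO2 and -0.29 for RNR1), and that of RNR1 also without Col-0 replicate 2 (-0.33). Between the mutants 8 of 19 were called higher in importin123 after subtraction (9.15% over all genes) and 5 of 21 as deposited (2.84%), by DESeq2 also 5, in the direction of HTA3, AT5G10390 and AT1G09200. Whether a larger share of dividing cells had a part in the histone differences was not tested.

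Of 12 genes of G2 and mitosis, 8 were called higher in importin123 after subtraction (19.3% over all genes) and 3 in lhp1-3 (9.08%), and 0 lower in either (21.7% and 7.17%, with 0 at an unadjusted p under 0.05). As deposited 5 were called higher and 1 lower in importin123 (42.3% and 33.2% over all features). In lhp1-3, 1 was called higher and 0 lower (41.8% and 33.5%, with 1 lower at an unadjusted p under 0.05). DESeq2 on the same deposited counts gave 0 higher and 2 lower in importin123 and 0 higher and 4 lower in lhp1-3 (1 higher in each at an unadjusted p under 0.05). The shares over all features by DESeq2 are not given here. The direction of this list therefore differed between tools and scales. CYCB1;4, a mitotic cyclin, rose in importin123 after subtraction (1.01 ± 0.15, adjusted p = 0.00161) and as deposited (0.48 ± 0.13, adjusted p = 0.00253). CDKB2;1, a mitotic kinase, rose there after subtraction (0.74 ± 0.15, adjusted p = 0.00556) and stood at 0.14 ± 0.13 as deposited (adjusted p = 0.304). CDKB1;1, a kinase of G2, was called higher in lhp1-3 after subtraction (0.62 ± 0.15, adjusted p = 0.0316), a call lost without any 1 of the Col-0 or lhp1-3 libraries (0.74 and 0.51 without Col-0 replicates 1 and 2, 0.57 and 0.68 without lhp1-3 replicates 1 and 2), and stood at 0.27 ± 0.14 as deposited (adjusted p = 0.0851).

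Among 8 other genes with a histone fold, 3 stood far enough above the floor to be tested after subtraction. As deposited 6 of the 8 were called higher and 1 lower in importin123 (42.3% and 33.2% over all features), and 6 higher and 0 lower in lhp1-3 (41.8% and 33.5%, with 0 lower at an unadjusted p under 0.05), where DESeq2 called 6 higher and 1 lower in each mutant. AT1G75600 stood at 3.46 and 3.61 RPKM in lhp1-3, 6.85 and 4.03 RPKM in importin123, and 0.828 and 1.02 RPKM in Col-0. It rose after subtraction in importin123 (2.76 ± 0.40, adjusted p = 0.00142) and was called higher in lhp1-3 (1.84 ± 0.40, adjusted p = 0.0191), a call lost without either lhp1-3 library (1.96 and 1.72, adjusted p = 0.094 and 0.0855). HTR12, the centromeric H3, was called higher as deposited in importin123 (1.04 ± 0.17, adjusted p = 4.16e-05) and in lhp1-3 (1.01 ± 0.17, adjusted p = 6.93e-05), at 2.55 and 2.39 RPKM in lhp1-3, 2.99 and 2.38 RPKM in importin123, and 0.900 and 0.897 RPKM in Col-0. HTR12 lay too near the floor to be tested after subtraction. That filter used means over all 6 libraries, so AT1G75600, at a similar level in Col-0, was kept through its higher mutant counts. The rise of AT1G75600 after subtraction is therefore not independent of how the gene was kept.

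The label of whole seedlings was checked on marker sums. The 4 leaf genes summed to 6371 and 7844 RPKM in lhp1-3, 5678 and 7309.6 RPKM in importin123, and 10462 and 11058 RPKM in Col-0. The 5 root genes summed to 80.2 and 82.0 RPKM in lhp1-3, 128 and 129 RPKM in importin123, and 104 and 75.1 RPKM in Col-0. Within these sums members went both ways. In importin123 after subtraction, 2 leaf genes were called higher and 2 lower, and 1 root gene higher and 2 lower (19.3% and 21.7% over all genes). As deposited, 1 leaf gene was called higher and 2 lower there, and 2 root genes lower (42.3% and 33.2% over all features). The 4 S-phase markers summed to 35.6 and 38.9 RPKM in lhp1-3, 70.3 and 69.6 RPKM in importin123, and 33.5 and 37.1 RPKM in Col-0, and the 3 mitosis markers to 23.0 and 26.5 RPKM in lhp1-3, 27.3 and 25.7 RPKM in importin123, and 22.3 and 19.5 RPKM in Col-0. The 3 flower genes (13.4 and 12.1 RPKM in lhp1-3, 7.15 and 5.19 RPKM in importin123, and 0.903 and 0.931 RPKM in Col-0) and the 2 seed genes (16.7 and 15.3 RPKM in lhp1-3, 283 and 496 RPKM in importin123, and 148 and 189 RPKM in Col-0) also differed between genotypes, and the 2 pollen genes summed to 3.49 and 3.73 RPKM in lhp1-3, 5.33 and 3.96 RPKM in importin123, and 0.568 and 0.624 RPKM in Col-0. These sums hold the floor, which was 1.32 to 1.79 RPKM for each gene in the mutant libraries and 0.206 and 0.248 RPKM in Col-0. The pollen sums lay near it, and 0 of the 2 pollen genes could be tested after subtraction. Of the 3 flower genes 2 were tested, with a median log2 fold change of 6.13 in lhp1-3 and 3.21 in importin123. The part of these markers' differences in the histone results was not tested.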

How the data were processed

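RNA of whole seedlings was sequenced after poly(A) selection, per the labels' protocols. The authors deposited whole-number counts and RPKM for 34262 features. FastQC, HISAT2, SAMtools, bedtools and edgeR, with the TAIR10 build, are named per the submitters' processing notes. No version, setting or use of strand was given in the sources used here. A recomputation showed that the deposited RPKM were per kb of whole gene span and per column total, so intron reads and reads of overlapping genes can count. For 32508 of 32524 features with an estimate, that span was 1 base under the TAIR10.1 length, so RefSeq TAIR10.1 coordinates, symbols and sequences were used.

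Samples were grouped by title. Deposited counts were tested with edgeR 4.0.16 in R 4.3.3 (filterByExpr, TMM, robust quasi-likelihood, all 6 libraries, two-sided, Benjamini-Hochberg over all features). SE was the absolute log2 fold change over the square root of F. The floor was estimated per library as reads per kb, taking the median of the lowest 10% of nuclear protein-coding genes that span 1000 bp or more, and was scaled by gene length. After subtraction, a nuclear gene was kept (19699 genes) if its mean remaining count was 10 or more and no smaller than its mean floor, and if it had no organelle match of 100 bp at 95% identity (BLAST 2.17.0). The means in this filter were over all 6 libraries, so a gene near the floor in Col-0 could be kept by its mutant counts. Subtracted CPM use the genes kept. Class sums carry no p. The common biological coefficient of variation was 0.14 and 0.142. The fits were also run on simulated data, whose outcome is not given here. The simulated floor had the form that was then subtracted, so it cannot show whether that form fits these libraries. Replicates correlated at 0.992 in lhp1-3, 0.990 in importin123 and 0.986 in Col-0, and the chi-square of their counts per degree of freedom was 22.0, 52.8 and 29.9, above sampling noise in every genotype. The 2 libraries per genotype, more than depth, limited the precision.

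The members, gene lists and tests were chosen with earlier results of these data known. Values in full were given for the 2 members of highest level in each class, for members called as deposited (up to 4 per class, by size), and for the member of least change. Of the lists, up to 4 genes per direction of smallest adjusted p were named, and CDT1A, HTR12 and others beyond that were added after their values were seen. Alternatives were RLE size factors, DESeq2 1.42.0, edgeR's legacy dispersion, fits on the libraries of each comparison alone, a replicate block, a minimum mean of 20 counts or no filter, nuclear genes only, the floor times 0.75 or 1.25, limma 3.58.1 on log2(RPKM + 1) with a mean of at least 0.5, and leaving out each library. A mean RPKM of at least 10, and subtraction with the block, were added after the data were seen.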

Additional observations from a re-analysis of the deposited data

Results flagged for a closer look

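HTA3 was higher in importin123 than in lhp1-3 by a log2 fold change of 0.93, and AT5G10390 by 0.53, both past the threshold of the edgeR test between the mutants, so that the 2 mutants' changes against the same Col-0 libraries differed for these genes. The call of HTA3 was kept without each library in turn, and that of AT5G10390 was not.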

How the results depend on the processing

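RLE size factors, DESeq2, the legacy test, the other filters, nuclear genes alone and only the libraries compared kept the histone counts within 1.5 times those given, except that RLE and DESeq2 each called 1 gene higher in importin123 against Col-0, DESeq2 called 1 higher in importin123 against lhp1-3, and the 4 libraries of the mutants alone gave 1 lower, AT2G28720. Floor subtraction, which also changed the scale factors, and the settings based on RPKM mattered more. In lhp1-3 against Col-0, floor subtraction gave 2 higher and 2 lower, the floor times 0.75 gave 2 and 11, a floor raised by the same step gave 3 and 0, limma on log2(RPKM + 1) gave 2 and 19, and a mean of at least 10 RPKM gave 2 and 1. In importin123 against Col-0 the same settings gave 9 and 7, 8 and 8, 12 and 5, 9 and 11, and 11 and 7, and a mean of at least 10 RPKM gave 5 higher between the mutants. The cause was not tested beyond the construction of these settings. Of the 41 genes, 13 in lhp1-3 and 18 in importin123 had a log2 fold change below 0 as deposited and above 0 after subtraction. In lhp1-3, 9 of these had been called lower as deposited, and their subtracted values were HTA6 0.10, HTA11 0.12, AT2G28720 0.14, AT2G37470 0.16, HTB11 0.07, AT1G09200 0.22, AT5G10400 0.20, HIS4 0.01 and AT5G59970 0.23. The other 4 were called on neither scale (HTA8 0.08, AT3G53650 0.23, AT5G10390 0.30 and AT1G07660 0.37). In importin123, 12 had been called lower as deposited (HIS1-3 0.29, HTA10 0.07, HTA13 0.07, HTB1 0.07, AT2G37470 0.08, HTB11 0.16, AT5G65360 0.26, AT1G07820 0.19, HIS4 0.11, AT3G45930 0.22, AT3G46320 0.27 and AT5G59970 0.28), 4 were called higher after subtraction (HTA11 0.45, AT1G09200 0.69, AT5G10400 0.55 and AT1G07660 0.52), and HTA6 (0.50) and AT3G53650 (0.49) were called on neither scale. By limma, HTA11 turned to 0.02 in lhp1-3, and in importin123 HIS1-3 turned to 0.07, HTA11 to 0.31, AT3G53650 to 0.44, AT5G65360 to 0.04, AT1G09200 to 0.46, AT1G07660 to 0.34 and AT3G45930 to 0.04.

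The summed CPM ratios were below 0 for every class in both mutants, from -1.18 to -0.18. Log2 ratios of summed class levels in lhp1-3 over Col-0, by RPKM and then by floor-subtracted CPM, were -0.51 and -0.27 for H1, -0.35 and -0.15 for canonical H2A, -0.54 and -0.35 for H2A.X, -0.32 and -0.13 for H2A.W, -0.59 and -0.38 for H2A.Z, -0.33 and -0.12 for H2B, -0.04 and 0.19 for H3.1, -0.52 and -0.27 for H3.3, -0.34 and -0.11 for H4, -0.29 and -0.08 for replication-dependent genes, -0.53 and -0.29 for replacement genes, and -0.40 and -0.20 for all 41. In importin123 over Col-0 they were -0.61 and -0.43 for H1, -0.25 and -0.09 for canonical H2A, 0.02 and 0.16 for H2A.X, 0.01 and 0.16 for H2A.W, -0.56 and -0.35 for H2A.Z, -0.22 and -0.02 for H2B, 0.35 and 0.56 for H3.1, -0.61 and -0.38 for H3.3, -0.13 and 0.05 for H4, -0.10 and 0.08 for replication-dependent genes, -0.60 and -0.38 for replacement genes, and -0.29 and -0.16 for all 41.

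Without each library in turn, deposited counts ran from 1 to 1 higher and 24 to 35 lower in lhp1-3, 1 to 2 higher and 22 to 29 lower in importin123, and 1 to 2 higher and 0 to 1 lower between the mutants. Subtracted counts ran from 0 to 2 and 0 to 2 in lhp1-3, 6 to 12 and 4 to 7 in importin123, and 1 to 7 and 0 to 1 between the mutants. Same-numbered libraries did not deviate together across genes (correlations of -0.0139 for lhp1-3 with Col-0, -0.1 for importin123 with Col-0 and 0.0656 for importin123 with lhp1-3). Each value rests on a single difference between libraries per genotype, so it cannot tell whether same-numbered libraries shared a planting. With the replicate block, deposited counts were 1 higher and 34 lower in lhp1-3, 2 and 29 in importin123, and 2 and 0 between the mutants; with the block after subtraction they were 2 and 2, 7 and 7, and 2 and 0.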
